A study of Rattus norvegicus with 32 samples.

Results

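Ager and Akap5 are genes known as markers of the flat alveolar type I pneumocytes of the lung, and both were followed here in lungs of rats bled of part of their blood. They were found by gene symbol in the probe annotation, which gave 1 probe for each gene and so 2 of the 5022 genes named by 1 symbol on the array. Lung RNA had been hybridised on 32 spotted arrays of 2 colours against a pool of RNA from several organs of untreated rats. The bled rats lost 40% of their estimated blood volume through a catheter, and their lungs were taken early (at 1, 3 and 6 h), at 16 h, or late (at 24, 48 and 72 h). All animals were male Sprague-Dawley rats. Sham rats carried the catheters and the telemetry device but were not bled, and control rats carried no instruments and were left alone. All sham and bled rats thus share the surgery and 7 to 10 days of recovery, which the controls lack. The labels do not give a single collection time for the sham lungs, so bled and sham lungs may differ in time of day.

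Sham replicate 2 and 16 h replicate 3 stood apart from the other arrays. They carried a signal of liver, with 25 liver genes at a median log2 ratio of 2.62 on the sham array and 1.97 on the 16 h array, against -1.05 to 0.21 elsewhere. Alb, which encodes the albumin made by liver, stood at 2.62 and 2.09 on the 2 arrays, and Sftpb, a surfactant protein of alveolar type II cells, at -2.38 and 0.60. Both arrays were left out, which left 3 control, 5 sham, 3 arrays each at 1, 3, 24, 48 and 72 h, 5 at 6 h and 2 at 16 h. For Ager and Akap5 the value with all 32 arrays is given where keeping them changed a call or a direction. Of 84 calls among the other genes of the lists below, counted over all comparisons, 41 held with all 32 arrays and 0 turned in direction, and the named ones that were lost are given beside their values. Of the 13056 spots on an array 12151 to 12895 carried a value, and the number of arrays limits the precision. Spots of the same probe correlated at 0.618 to 0.875 within an array, lowest on 3 h replicate 2. The labels name lungs of rats without numbering the animals, so a p-value here reflects the spread among arrays, which may be partly technical. Where single lungs are named below, each stands for 1 array.

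Type I pneumocytes cover most of the alveolar surface and form the thin barrier across which gas moves, while the cuboidal type II cells make surfactant and can renew the type I layer. Ager encodes the receptor for advanced glycation end products (RAGE), a membrane receptor of the immunoglobulin superfamily that binds HMGB1, S100 proteins and glycated proteins. In the lung it is abundant on the basal side of type I cells. Akap5 encodes an A-kinase anchoring protein, called AKAP150 in rodents, a scaffold that holds protein kinase A, protein kinase C and the phosphatase calcineurin next to adenylyl cyclase, beta-adrenergic receptors and ion channels. It is used in rats and mice as a marker of type I cells.

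The Ager probe carries the GenBank sequence L33413 (Entrez gene 81722, chromosome 20) and the Akap5 probe U67136 (Entrez gene 171026, chromosome 6). Each was spotted 2 times on every array and had a value on all 32 arrays. The stretch around each gene's start, 250 bases before and 50 after it, is shown from RefSeq (build GRCr8) because both genes mark the same cells and the stretches differ in make-up. Capitals mark the GC box GGGCGG, searched on both strands.
Ager, chr20:4155636-4155935, minus strand: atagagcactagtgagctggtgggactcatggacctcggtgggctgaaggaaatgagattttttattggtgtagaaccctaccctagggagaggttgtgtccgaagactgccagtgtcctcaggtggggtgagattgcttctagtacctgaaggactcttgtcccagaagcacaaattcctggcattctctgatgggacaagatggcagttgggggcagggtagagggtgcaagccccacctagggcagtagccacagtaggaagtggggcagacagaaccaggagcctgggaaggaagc
Akap5, chr6:100786919-100787218, plus strand: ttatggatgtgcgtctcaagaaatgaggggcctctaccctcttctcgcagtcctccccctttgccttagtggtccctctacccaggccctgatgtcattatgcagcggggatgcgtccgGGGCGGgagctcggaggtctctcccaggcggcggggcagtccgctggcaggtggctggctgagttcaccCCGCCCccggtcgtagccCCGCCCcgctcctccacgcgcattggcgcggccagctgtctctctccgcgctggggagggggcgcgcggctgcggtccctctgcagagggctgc
The Akap5 stretch had 69.0% G and C, 25 CpG pairs and 3 GC boxes. The Ager stretch had 54.3% G and C, 2 CpG pairs and 0 GC boxes. Over the 27457 rat promoters of this length in the same table the median was 52.3% G and C and 7 CpG pairs, and 34.9% of them held at least 1 GC box. The letters TATAAA, on both strands, were found in neither stretch and in 14.3% of all promoters. CCAAT was found 1 time in each and in 37.7% of all promoters. These matches describe letters only, and no binding was measured.

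Values below are log2 ratios of lung over organ pool, with each array's median set to 0 and the spots of a probe averaged. A value of 1 means 2 times the pool. The pool holds lung RNA itself. With equal amounts of RNA from the 10 organs the labels state, a transcript found in lung alone would stand 10 times above the pool (log2 3.32), and with the 9 organs they name at log2 3.17. Both genes lay above 0 on all 30 arrays, Ager from 0.77 to 2.72 and Akap5 from 1.07 to 2.89. Bulk lung RNA cannot tell fewer type I cells from less RNA of a gene in each cell, and this holds for every difference below.

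**Figure D1:**
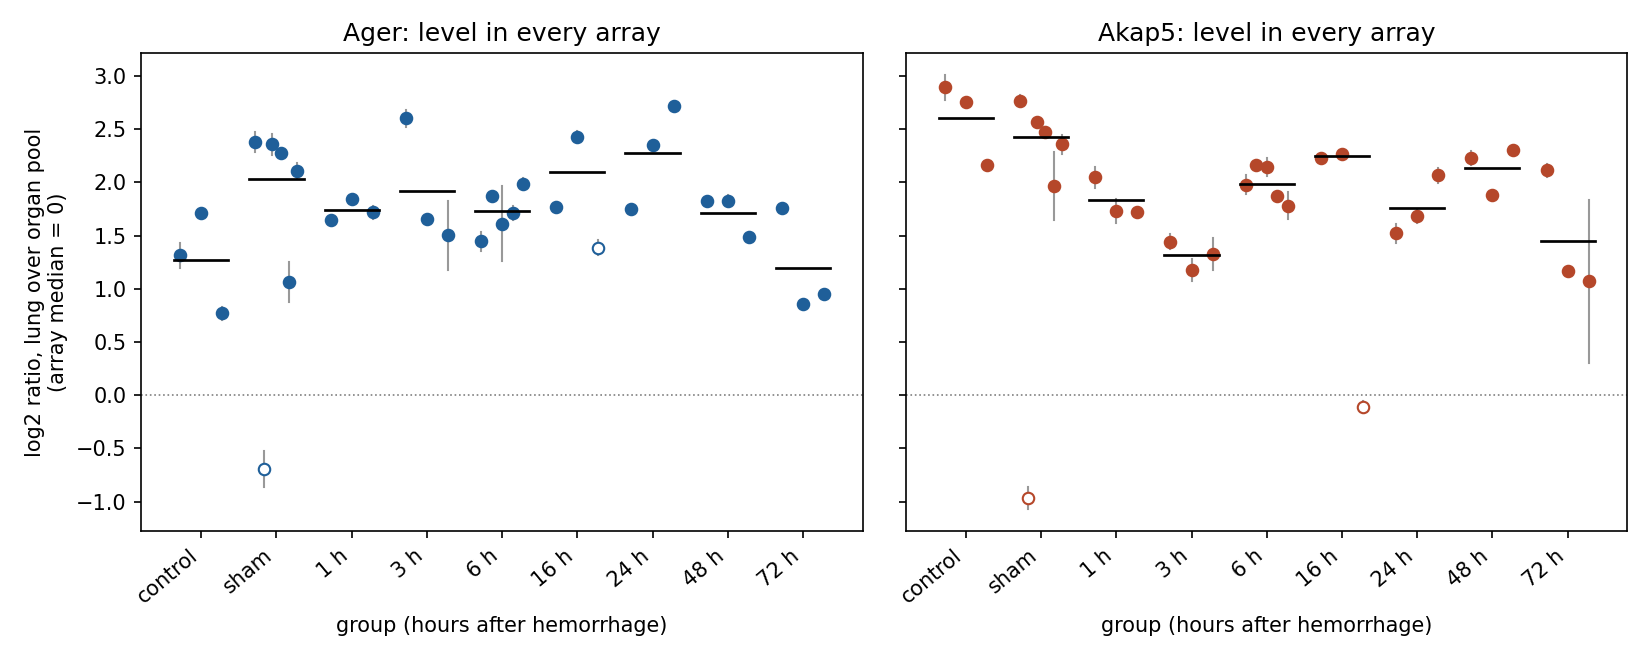
Log2 ratio of lung over organ pool (array median 0) for Ager and Akap5 on each of 32 arrays, grouped as control, sham and hours after hemorrhage. Points are means of 2 spots, grey lines join the 2 spots, black bars are group means over the arrays used, and the hollow points are sham replicate 2 and 16 h replicate 3, which were left out; the 3 Akap5 points at 3 h lie below all 5 sham points used.

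Akap5 stood highest in the lungs that had not been bled. It read 2.77, 2.57, 2.48, 1.97 and 2.36 in sham lungs. Control lungs read 2.89, 2.75 and 2.16. All 22 bled arrays lay below the sham mean, 12 of them below the lowest sham array and 17 below the lowest control array.

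At 1 h Akap5 read 2.05, 1.73 and 1.73, and 2 of these arrays lay below all sham arrays. At 3 h it read 1.45, 1.18 and 1.33, the lowest group mean of the 9 (1.32 ± 0.13, SD, n = 3), and no array overlapped the sham range. At 6 h it read 1.98, 2.17, 2.15, 1.88 and 1.78, so that the lowest of these still exceeded the highest at 3 h. The 16 h arrays, 2.23 and 2.27, both lay inside the sham range.

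Lower values returned at 24 h, with 1.52, 1.68 and 2.07, of which 2 were below all sham arrays. At 48 h the lungs read 2.23, 1.89 and 2.31, and 1 array was below the sham range. At 72 h they read 2.11, 1.17 and 1.07, so that 1 lung resembled sham and the other 2 were as low as at 3 h. On 72 h replicate 3 the 2 spots of Akap5 disagreed, at 1.84 and 0.30, the widest gap between its spots on any of the 32 arrays. In order of group mean Akap5 ran control (2.60 ± 0.39), sham (2.43 ± 0.30), 16 h (2.25 ± 0.02, n = 2), 48 h (2.14 ± 0.22), 6 h (1.99 ± 0.17, n = 5), 1 h (1.84 ± 0.18), 24 h (1.76 ± 0.28), 72 h (1.45 ± 0.58) and 3 h (SD, n = 3 where not given, 5 for sham). Every pair of neighbours in this order overlapped in range.

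Against sham, Akap5 fell at 3 h by 1.11 ± 0.23 on the log2 scale (SE of the fit, 3 against 5 arrays, 95% interval -1.59 to -0.63). This is 2.16-fold lower, with an adjusted p of 0.0128 in limma. At 3 h 2.98% of the 6112 probes tested passed an adjusted p under 0.05 and 1.85% passed as lower, while 5.09% had all 3 arrays below all sham arrays. The call held without any single array of either group, at adjusted p of 0.0124 to 0.0479, the weakest being without 3 h replicate 2. With all 32 arrays the difference was -0.54 (adjusted p = 0.626), with sham replicate 2 at -0.97. It was also lost with the spread taken from these groups only (adjusted p = 0.171) and with the higher-numbered spot alone (-0.93, adjusted p = 0.0624).

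At 72 h Akap5 fell by 0.98 ± 0.23 (3 against 5 arrays, adjusted p = 0.0164 in limma), among 5.87% of probes called and 3.83% called as lower. That call was lost without 72 h replicate 2 (-0.84, adjusted p = 0.121) or without 72 h replicate 3 (-0.79, adjusted p = 0.157), and with all 32 arrays (-0.41, adjusted p = 0.714). The other 5 times did not pass in limma. The difference was -0.67 ± 0.23 at 24 h (adjusted p = 0.0982), where 3.52% of probes were called, and -0.59 ± 0.23 at 1 h (adjusted p = 0.387), where 0% were called and 10.9% had an unadjusted p under 0.05. It was -0.44 ± 0.20 at 6 h (adjusted p = 0.243), with 0% called and 18.8% at an unadjusted p under 0.05. At 48 h it was -0.29 ± 0.23 (adjusted p = 0.570, 1.18% called) and at 16 h -0.18 ± 0.27 (adjusted p = 0.801, 0.0654% called). The sham arrays are shared by all 7 of these differences.

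Taking the mean of the 7 times, Akap5 fell by 0.61 ± 0.16 against sham, 1.52-fold (22 against 5 arrays, adjusted p = 0.0335 in limma), where 3.40% of probes were called and 1.98% as lower. The joint test of any time against sham gave a moderated F of 5.01 (adjusted p = 0.0343, 5.66% called). Leaving out sham replicate 1, 3, 4 or 6 or 16 h replicate 1 ended the first of these calls, with differences of -0.52, -0.57, -0.60, -0.63 and -0.61 (adjusted p of 0.132, 0.0970, 0.0526, 0.0653 and 0.0521). The joint call ended in 8 of 27 such fits, at adjusted p of 0.0503 to 0.0704. With all 32 arrays the mean difference was -0.15 (adjusted p = 0.831) and F was 0.459 (adjusted p = 0.888).

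The control lungs, which do not include sham replicate 2, gave a similar picture for Akap5. The mean of the 7 times differed from control by -0.78 ± 0.20 (1.72-fold lower, 22 against 3 arrays, adjusted p = 0.0205 in limma), where 8.07% of probes were called and 3.94% as lower. The call was lost without control replicate 1 (-0.64, adjusted p = 0.269) or control replicate 2 (-0.71, adjusted p = 0.0887). With all 32 arrays the difference was -0.89 and the spread was wider (adjusted p = 0.258). Sham and control differed by -0.17 ± 0.23 for Akap5 (95% interval -0.65 to 0.30, adjusted p = 0.9997), in a comparison with 0% of probes called and 4.76% at an unadjusted p under 0.05.

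The steps between neighbouring times were looked at after the values were seen. The 3 h arrays lay below all 1 h arrays for Akap5, with a difference of -0.52 ± 0.26 (adjusted p = 0.496 in limma, 0% called, 10.3% at an unadjusted p under 0.05 and 5.28% with all 3 h arrays below all 1 h arrays). The 6 h arrays lay above all 3 h arrays, with a difference of 0.67 ± 0.23 (adjusted p = 0.111, 0.933% called, 6.46% with all 6 h arrays above). Neither passed. Late lungs (24, 48 and 72 h) and early lungs (1, 3 and 6 h) differed by 0.07 ± 0.14 (adjusted p = 0.814), where 7.12% of probes were called.

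Ager did not pass the test in any comparison. Sham lungs read 2.38, 2.36, 2.28 and 2.11 on 4 arrays and 1.06 on sham replicate 5, which stood apart from the rest of its group. Control lungs read 1.31, 1.72 and 0.77. Ager thus lay higher in most sham lungs than in control, with ranges that overlapped through sham replicate 5.

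After hemorrhage Ager read 1.65, 1.85 and 1.72 at 1 h, inside the sham range. At 3 h, where Akap5 was lowest, it read 2.60, 1.66 and 1.50, and 1 of these was above all sham arrays. At 6 h it read 1.45, 1.88, 1.61, 1.71 and 1.99, and all 5 lay below the sham mean of 2.04. The 16 h arrays read 1.77 and 2.43, on either side of that mean.

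Its highest values came at 24 h, with 1.75, 2.35 and 2.72, the last above every other array. At 48 h Ager read 1.82, 1.83 and 1.49, all 3 below the sham mean. At 72 h it read 1.76, 0.86 and 0.96, and replicates 2 and 3, the same lungs that were low for Akap5, lay below all sham arrays. In order of group mean Ager ran 24 h (2.28 ± 0.49), 16 h (2.10 ± 0.47, n = 2), sham (2.04 ± 0.56, n = 5), 3 h (1.92 ± 0.60), 1 h (1.74 ± 0.10), 6 h (1.73 ± 0.21, n = 5), 48 h (1.71 ± 0.20), control (1.27 ± 0.48) and 72 h (1.19 ± 0.50) (SD, n = 3 where not given). Every pair of neighbours overlapped.

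The Ager difference from sham was largest at 72 h, at -0.84 ± 0.31 (3 against 5 arrays, 95% interval -1.49 to -0.20, unadjusted p = 0.0121 and adjusted p = 0.109 in limma). It passed without sham replicate 5 (-1.09, adjusted p = 0.0365) or without 72 h replicate 1 (-1.13, adjusted p = 0.0444). At the other times it was -0.30 at 1 h, -0.12 at 3 h, -0.31 at 6 h, 0.06 at 16 h, 0.24 at 24 h and -0.32 at 48 h, with adjusted p of 0.543 to 0.957. The mean of the 7 times gave -0.23 ± 0.21 (95% interval -0.67 to 0.21, adjusted p = 0.554), and the joint test an F of 1.81 (adjusted p = 0.254). Late lungs against early lungs gave -0.07 ± 0.19 (adjusted p = 0.864). With all 32 arrays the differences at 1, 3, 6 and 48 h and the mean of the 7 times were above 0 instead, at 0.16, 0.34, 0.15, 0.13 and 0.19, none of them called.

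Sham against control gave 0.77 ± 0.31 for Ager (5 against 3 arrays, unadjusted p = 0.0208, adjusted p = 0.970 in limma). The mean of the 7 times against control gave 0.54 ± 0.26 (95% interval -0.00094 to 1.09, adjusted p = 0.187). In the mean of the 7 times Ager was therefore numerically above control and below sham, and neither difference passed. Single times departed from this: the means at 24 h (2.28) and 16 h (2.10) lay above sham (2.04), and that at 72 h (1.19) below control (1.27).

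**Figure D2:**
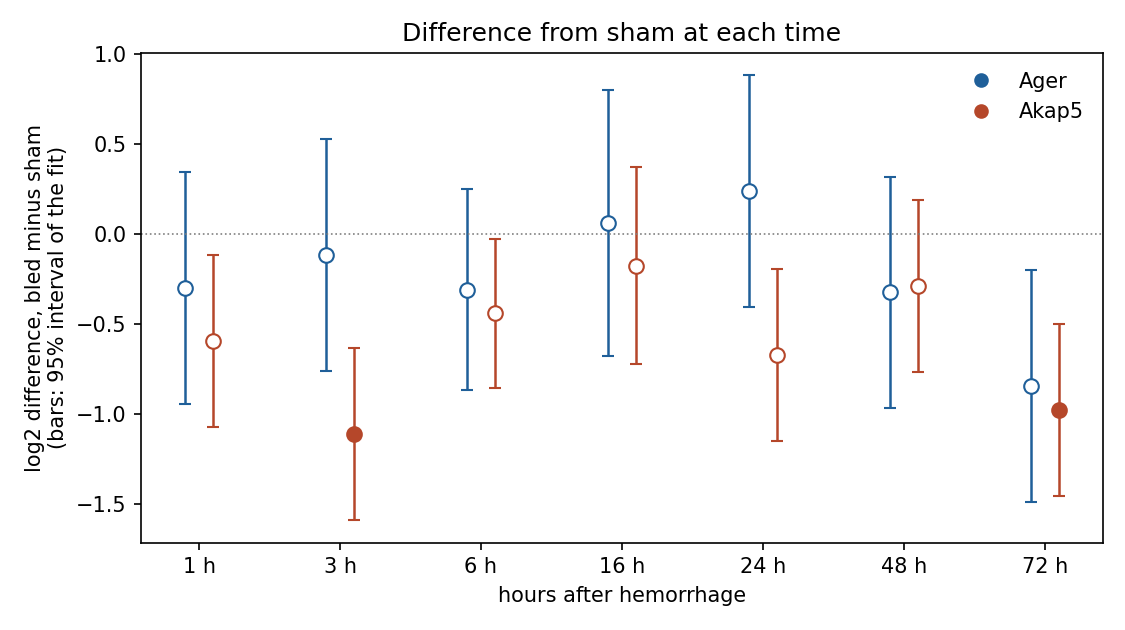
Log2 difference, bled minus sham, for Ager and Akap5 at 1 to 72 h after hemorrhage, with 95% intervals of the fit over 30 arrays. Filled points passed an adjusted p under 0.05 in limma; these are Akap5 at 3 h (-1.11) and at 72 h (-0.98), and no Ager point passed.

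Whether the 2 genes differed in their response was asked of the difference Akap5 minus Ager on each array, in 9 comparisons added after the values were seen. At 3 h this difference was -0.60 on average (-1.16 to -0.17), against 0.39 in sham (0.20 to 0.91), with no overlap. At 24 h it was -0.52 (-0.67 to -0.23), against the same sham values, again with no overlap. Each gave an exact permutation p of 0.0357, the smallest that 3 against 5 arrays allow, and 0.107 after adjustment over the 9 comparisons. How many other pairs of genes were without overlap in these 9 comparisons was not counted.

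At 72 h the difference between the genes was 0.26, against 0.39 in sham (exact permutation p = 0.643), as Ager and Akap5 were low on the same 2 lungs. In sham lungs it was 0.39 (0.20 to 0.91), against 1.34 in control lungs (1.04 to 1.58), with no overlap (exact permutation p = 0.0357, adjusted 0.107). The step in this difference was -0.944 between sham and control lungs and -0.996 between 3 h and sham lungs, and none of the 9 comparisons passed after adjustment. Over all 22 bled arrays the difference was 0.03, against 0.39 in sham (exact permutation p = 0.0955, adjusted 0.215).

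Across the 30 arrays the levels of Ager and Akap5 were weakly related (Pearson's r = 0.270, permutation p = 0.149; Spearman's rho = 0.244, p = 0.195). Without the 2 arrays farthest from the median of Ager r was 0.335 (permutation p = 0.0808). The 9 group means of the genes had r = -0.01. Within groups the picture was different: the deviations of the arrays from their group means had r = 0.661 and rho = 0.587 (permutation p = 0.00321 and 0.00525 with arrays permuted inside groups, adjusted 0.0112 and 0.0367 over 7 relations). Within a group, lungs low in Ager were thus mostly low in Akap5. Without the 2 arrays with the largest Ager deviations, sham replicate 5 and 3 h replicate 1, r was 0.607 and rho 0.454 (permutation p = 0.0360 and 0.0743), and neither passed after adjustment over the 7 relations (0.0841 and 0.145). With all 32 arrays, sham replicate 2 being lowest for both genes, the pooled r was 0.606 (rho 0.353).

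**Figure D3:**
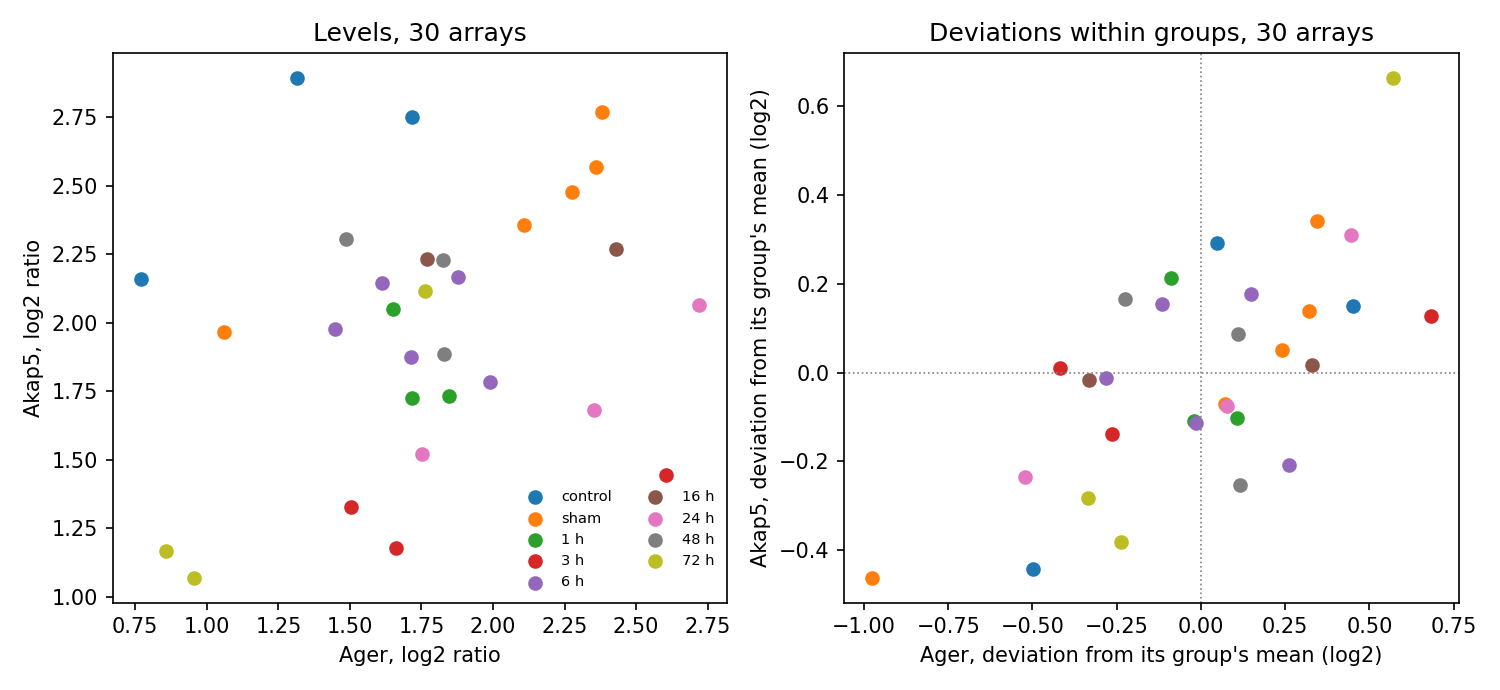
Left, Akap5 against Ager as log2 ratios on 30 arrays, coloured by group; right, the same arrays as deviations from their group mean. The levels have r = 0.270 and the deviations r = 0.661.

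Among 4838 other probes with 1 symbol and a value on all 30 arrays, Akap5 was the 3rd closest to Ager by r within groups, and Ager the 4th closest to Akap5. By r over the levels of the 30 arrays Akap5 came 712th for Ager and Ager 1061st for Akap5. The deviations of Ager had r = 0.270 with the median of the 9 other type I genes, 0.255 with that of 10 capillary endothelial genes, 0.07 with that of 14 type II genes and 0.213 with that of 25 liver genes. Those of Akap5 had r = 0.483, 0.277, 0.114 and -0.191 with the same medians. These r describe arrays that share the organ pool and the array median, and whether tissue sampled for each lung varied was not tested.

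The genes whose levels followed Ager most closely over the 30 arrays were Grk3, a G protein-coupled receptor kinase (r = 0.826), Hpn, a membrane serine protease (0.683), Eln, which encodes elastin (0.648), Cyp4f4, a cytochrome P450 (0.642), and C10h5orf47 (0.639). For Akap5 they were Slc1a6, a glutamate transporter (0.811), Mep1a, a subunit of the protease meprin (0.770), Adcyap1r1, the receptor for the peptide PACAP (0.760), Pik3r3, a regulatory subunit of PI 3-kinase (0.744), and Enpep, glutamyl aminopeptidase (0.737). At 3 h against sham, 3 of these 5 followers of Akap5 were called lower in limma: Slc1a6 by -1.34 (adjusted p = 0.0108), Pik3r3 by -1.21 (adjusted p = 0.0393) and Enpep by -0.93 (adjusted p = 0.0285). A second probe of Enpep lay on the other side of sham, at 0.70 (adjusted p = 0.252). None of the 3 was called with all 32 arrays (adjusted p of 0.0664, 0.135 and 0.125). They were picked for likeness over the same arrays, so this is a description.

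Type I genes as a list held 25 symbols, of which 11 were on the array. Their mean log2 ratio over the 30 arrays was above 0 for all 11, between 0.22 for Scnn1g, a sodium channel subunit, and 2.20 for Hopx, a homeodomain protein of type I cells. On sham replicate 2, 8 of them were below 0, Hopx at -1.02 and Clic5, a chloride intracellular channel protein, at -0.62. On 16 h replicate 3 Ager was at 1.39 and Hopx at 1.51, yet Akap5 was at -0.11 and Pdpn, the type I surface protein podoplanin, at -1.49. On the 30 arrays used, the measured markers of type I cells thus stood above the organ pool.

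In the mean of the 7 times against sham, 1 of the 11 type I genes was called lower, Akap5, and 0 higher. Over all probes 3.40% were called there and 1.98% as lower. Akap5 is itself 1 of the 2 genes chosen here, so its call does not speak for the rest of the list. The list's median difference was -0.23, beside 0.03 over all probes, and 8 of 11 were below 0. Next by p came Vegfa, the vascular endothelial growth factor, at -0.73 ± 0.22 (adjusted p = 0.0675), and Aqp5, the apical water channel of type I cells, at -0.61 ± 0.22 (adjusted p = 0.109). Pdpn was at -0.01 ± 0.19 (adjusted p = 0.979). At 3 h the list's median was -0.06, beside 0.01 over all probes, with Akap5 the single call (2.98% of all probes called). At 72 h it was -0.30, beside 0.02, with 10 of 11 below 0 and again Akap5 alone called (5.87% of all probes called).

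Hopx was called in another comparison. It was lower in late than in early lungs by -1.13 ± 0.24 (9 against 11 arrays, adjusted p = 0.00897 in limma). This was the only call of the 11 there, where 7.12% of all probes were called. The call of Hopx was lost with all 32 arrays (adjusted p = 0.0942). The difference of Hopx from sham was 0.74 at 3 h and -1.19 at 72 h (adjusted p of 0.266 and 0.0699). At 3 h Akap5 and Hopx thus lay on opposite sides of sham, and that contrast was not tested.

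**Figure D4:**
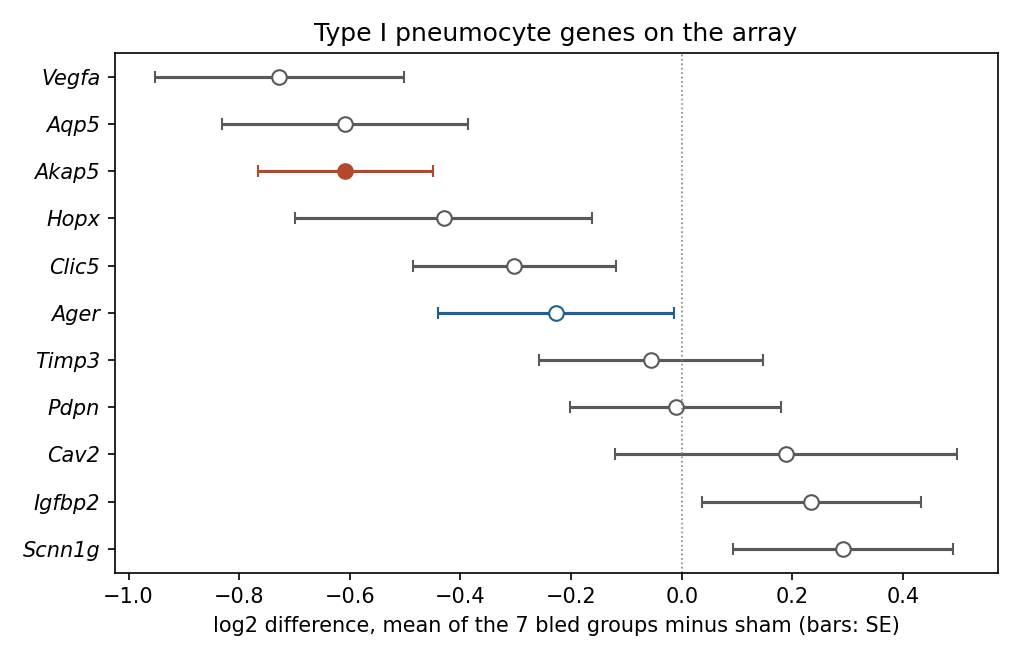
Log2 difference, mean of the 7 bled groups minus sham, for the 11 type I genes on the array, with SE bars from the fit over 30 arrays. The filled point is Akap5 (-0.61), which alone passed an adjusted p under 0.05; Ager lay at -0.23 and Pdpn at -0.01.

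The molecules Ager binds were represented by 10 of 15 symbols, 9 of them tested, and limma called 0 of them at any time against sham or in the mean of the 7 times. In that mean 1 had an unadjusted p under 0.05, as higher, and the median was 0.25. S100a9, a calcium-binding protein of neutrophils, was highest at 1.52 ± 0.48 (adjusted p = 0.0748). Hmgb1, a nuclear protein released from injured cells, stood at 0.01 ± 0.16 and App, the amyloid precursor protein, at -0.28 ± 0.15. Against control Ttr, the carrier protein transthyretin, was called higher by 0.85 ± 0.27 (adjusted p = 0.0498), and it is also on the liver list. That call, among 8.07% of probes called, was lost with all 32 arrays (adjusted p = 0.270 in limma).

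In the mean of the 7 times 3.40% of all probes were called. Of 19 tested genes for shedding, adaptors and effectors of Ager, 1 was called higher there and 0 lower (median -0.15). This was Diaph1, a formin that binds the tail of RAGE, at 0.88 ± 0.22 (adjusted p = 0.0294). It rose by 1.33 ± 0.32 at 3 h (adjusted p = 0.0285) and 1.14 ± 0.32 at 24 h (adjusted p = 0.0481). Adam10, a protease that sheds RAGE from the cell surface, was higher in late than in early lungs by 0.91 ± 0.26 (adjusted p = 0.0363, and 0.0867 with all 32 arrays). Against control the list had 1 call higher, Il6 at 1.11, and 2 lower, Stat3 at -0.84 and the oxidase subunit Cybb at -0.90. Over all probes 8.07% were called there and 3.94% as lower. Stat3 and Cybb were not called with all 32 arrays (adjusted p = 0.0534 and 0.0609). Of 8 tested receptors and adhesion molecules related to Ager 0 were called in the mean of the 7 times (median 0.03). Of these, 2 had an unadjusted p under 0.05 there, both as higher. Cd36, a scavenger receptor, rose by 1.07 at 72 h (adjusted p = 0.0299 in limma), where 5.87% of all probes were called.

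The proteins Akap5 is known to hold were covered by 32 tested genes. In the mean of the 7 times 3 were called lower and 0 higher, where 1.98% of all probes were called as lower. The list's median was 0.02, beside 0.03 over all probes. Cdh1, the adherens junction protein E-cadherin, fell by 1.28 on the log2 scale (adjusted p = 0.00541), Pde4b, a cyclic AMP phosphodiesterase, by 0.63 (adjusted p = 0.0390) and the acid-sensing channel Asic1 by 0.48 (adjusted p = 0.0306). Against control 7 of the 32 were called lower and 0 higher, where 3.94% of all probes were called as lower. These were Cdh1 (-1.39), Pde4b (-1.21), Dlg4 (-1.13), Pde4d (-0.78), Cacna1c (-0.70), Prkcb (-0.67) and Asic1 (-0.53). Cacna1c and Asic1 were not called with all 32 arrays (adjusted p = 0.0721 and 0.0577 in limma). The list's median was 0.16 there, beside 0.06 over all probes.

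At 3 h the single call among the 32 was Adcy5, an adenylyl cyclase, which fell by 1.58 ± 0.31 (adjusted p = 0.0108, and 0.0690 with all 32 arrays). The median of the 32 was -0.19 there, beside 0.01 over all probes, of which 2.98% were called. At 24 h 5 were called lower, Cdh1, Prkcb (a protein kinase C), Pde4b, Asic1 and Ppp3cb (a catalytic subunit of calcineurin), and 0 higher, where 3.52% of all probes were called. Prkcb stood at -0.98 ± 0.21 and Ppp3cb at -1.64 ± 0.45. Pde4b and Asic1 were not called there with all 32 arrays (adjusted p = 0.0765 for each). At 72 h 2 were called, Cdh1 at -1.72 and Asic1 at -0.77, where 5.87% of all probes were called and 3.83% as lower. The regulatory subunits of protein kinase A on the array, Prkar1a, Prkar2a and Prkar2b, were not called in any of the comparisons with sham.

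Of 10 A-kinase anchoring proteins tested, Akap5 was the only one called in any comparison with sham or control. In the mean of the 7 times the list's median was -0.17 and 8 of 10 were below 0. Akap12, known as gravin, stood at -0.29 ± 0.17 (adjusted p = 0.302), Map2, a microtubule protein that also binds protein kinase A, at -0.27 ± 0.15 (adjusted p = 0.270), and Ezr, which encodes ezrin, at 0.01 ± 0.17.

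Markers of other cells in the lung gave the following beside the fall of Akap5. Of 14 type II genes 2 were called lower in the mean of the 7 times (median -0.39), where 1.98% of all probes were called as lower. These were Sftpb at -0.90 ± 0.22 and the protease Ctsh at -0.68 ± 0.14. At 3 h 0 of the 14 were called and 1 had an unadjusted p under 0.05, as lower (median -0.03). At 72 h 3 were called lower, with Sftpc at -1.65 (median -0.61), where 3.83% of all probes were called as lower. Akap5 was thus called at 3 h without any type II gene, and at 72 h together with 3 of them. Whether Akap5 and the type II genes differed in timing was not tested. Keeping all 32 arrays, Sftpb was at -0.09 (adjusted p = 0.939) and Ctsh at -0.53 (adjusted p = 0.0655) in the mean of the 7 times, and of the 3 calls at 72 h Ctsh alone held. Of 10 capillary endothelial genes 0 were called in the mean of the 7 times (median -0.30), with 1 lower and 2 higher at an unadjusted p under 0.05. At 3 h 0 were called, with 2 lower at an unadjusted p under 0.05. At 24 h, where 3.52% of all probes were called, Plvap was called lower by -1.20 (adjusted p = 0.0387 in limma, and 0.0452 with all 32 arrays). At 72 h Car4, an enzyme of capillary endothelium, was at -2.14 and Kdr, a VEGF receptor, at 0.86.

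In the mean of the 7 times 3.40% of all probes were called. Of 13 leukocyte genes 2 were called higher there and 1 lower (median 0.14). The higher ones were the neutrophil collagenase Mmp8 at 1.93 and Fcgr2a at 0.86 (adjusted p = 0.0166 in limma, and 0.0132 with all 32 arrays). A second probe of Fcgr2a was at 0.77 (adjusted p = 0.0593). The lower one was the pan-leukocyte gene Ptprc at -0.77. Of 6 red cell genes 1 was called higher, Rhag at 0.91 (median -0.20). Of 7 club and airway cell genes 0 were called, with 1 lower at an unadjusted p under 0.05 (median 0.02). Of 25 liver genes 1 was called higher, F2 at 0.98 (median 0.18). Mmp8 and F2 were not called with all 32 arrays (adjusted p = 0.0722 and 0.0804). At 3 h, where 2.98% of all probes were called, Cxcr2, a chemokine receptor of neutrophils, was called higher by 1.71 (adjusted p = 0.0475) among the leukocyte genes (median 0.36). The red cell transcription factor Gata1 was called lower by -1.83 (adjusted p = 0.0109, list median -0.29), and 0 club and airway genes were called or had an unadjusted p under 0.05 (median -0.06). Of the liver genes F2 was called higher and Ass1 lower (median 0.15). None of these 4 calls at 3 h held with all 32 arrays.

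At 72 h, where 5.87% of all probes were called, Mmp8 was higher by 4.37 and Ptprc lower by -1.08 (leukocyte median 0.07). Rhag was higher by 1.54 and Gata1 lower by -1.24 (adjusted p = 0.0468, red cell median -0.14). Scgb1a1, the secretory protein of club cells, was lower by -2.15 (adjusted p = 0.0221, list median 0.11). Cyp4b1, a cytochrome P450 on the same list, was at 0.16 on the probe used (adjusted p = 0.800 in limma). A second probe of Cyp4b1 was at -2.21 (adjusted p = 0.00545), and the list median leaves it out. F2 was called higher and Fga, a fibrinogen chain, lower among the liver genes (median -0.02). The calls of Ptprc, Gata1, Scgb1a1 and F2 at 72 h were lost with all 32 arrays, and those of Mmp8, Rhag and Fga held.

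The liver median ranged from -0.59 to -0.33 on the 3 h arrays and from -0.79 to -0.48 at 72 h. It was -0.78 to -0.37 on the 5 sham arrays and -1.05 to -0.42 on the control arrays. In the mean of the 7 times against control 4 of 25 liver genes were called higher and 0 lower. Their median difference was 0.26, beside 0.06 over all probes, of which 8.07% were called. The part of these lists in the change of Akap5 was not tested.

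**Figure D5:**
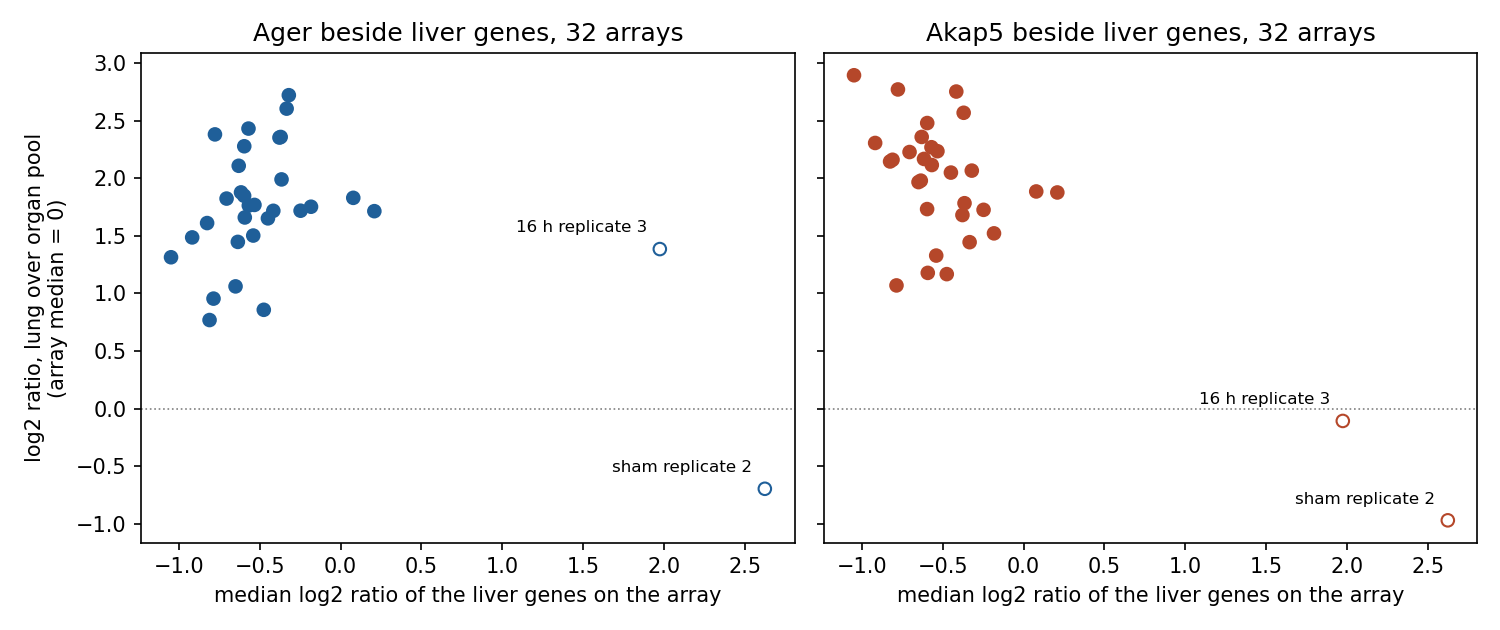
Level of Ager and Akap5 (log2 ratio of lung over organ pool) against the median log2 ratio of 25 liver genes on the same array, for 32 arrays. Hollow points are sham replicate 2 (2.62 for the liver median) and 16 h replicate 3 (1.97), which were left out; on 16 h replicate 3 Ager stayed at 1.39 while Akap5 was at -0.11.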

How the data were processed

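Rat lung RNA and a pool of organ RNA were hybridised together on 32 arrays of 2 colours. The authors deposited log2 ratios of lung over pool for each spot. What normalization, dyes and scanner they used is not given in the sources used here. Direction was read from the genes, since the median of lung genes lay above that of liver genes on 30 of 32 arrays. On a linear scale 100% of deposited ratios lay within 0.001 of a multiple of 0.01, with a lowest ratio of 0.01. Array medians, -0.377 to 0.0566, were subtracted, and a probe's spots were averaged into 6344 probes. Symbols came from the platform annotation: 5143 probes had 1 symbol, 7 several and 1194 none. For a list gene with several probes the one with a value on most arrays was used.

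Groups came from the titles. A single model of 9 groups over 30 arrays was fitted with limma (version 3.58.1, R version 4.3.3), with two-sided moderated tests by lmFit and eBayes. It covered the 6112 probes measured on 2 or more arrays in each group. The Benjamini-Hochberg method was applied within a comparison over those probes, and calls are those with an adjusted p below 0.05. Of 14 comparisons, the joint test included, 2 were added after the values were seen. Correlations used 100000 permutations and differences between the genes an exact permutation test. On simulated data of the 3 h comparison, with 6112 probes, changes of 1 log2 unit were found in 31% of cases and changes of 2 units in 83%.

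Replicate numbers did not pair the arrays: same-numbered arrays of different groups had a median correlation of deviations of -0.00367 (-0.427 to 0.353), so the number was not used as a block. The 2 members, the 12 gene lists, the named followers (the 5 closest probes by r) and the removal of sham replicate 2 and 16 h replicate 3 were chosen with earlier results of these data known. Of a list, named genes came from those called in a comparison and those with the smallest p in the mean of the 7 times. Not every called gene was named. Pdpn, Hmgb1, Ezr and the protein kinase A subunits were named for their role. Alternatives were all 32 arrays, no centring, quantile normalization, no filter, either spot alone, spots with a ratio at or below 0.05 set to missing, array weights, the compared groups alone, and each array left out.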

Additional observations from a re-analysis of the deposited data

Results flagged for a closer look

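For Ager, sham replicate 5 lay at 1.06, apart from the other 4 sham arrays (2.11 to 2.38), with a gap of 0.793 of the group's range. For Akap5, sham replicate 2 lay at -0.97, apart from the other 5 of all 6 sham arrays (1.97 to 2.77), with a gap of 0.785 of the range. Chance alone sets apart about 1 in 20 groups. Without sham replicate 5 the Ager difference at 72 h passed the test (-1.09, adjusted p = 0.0365 in limma), and sham replicate 2 was left out of all values above that are not given for all 32 arrays.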

How the results depend on the processing

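Of 356 fits with 1 array left out, 327 kept the direction and the side of the threshold, and so did 274 of 312 other alternatives. These counts include comparisons that were not called and stayed so. With 1 array left out the Akap5 call was lost in 0 of 8 fits at 3 h and 2 of 8 at 72 h. It was lost in 5 of 27 for the mean against sham, 2 of 25 against control and 8 of 27 in the joint test. In the other alternatives the same calls were lost in 3 of 10, 3 of 10, 4 of 11, 3 of 10 and 4 of 10. With all 32 arrays the Akap5 calls were lost at 3 h (-0.54), at 72 h (-0.41), for the mean of the 7 times against sham (-0.15) and against control (-0.89) and in the joint test (F 0.459). Its differences at 6 h and 48 h turned to 0.13 and 0.28, and those of Ager at 1, 3, 6 and 48 h and for the mean of the 7 times to 0.16, 0.34, 0.15, 0.13 and 0.19. Quantile normalization lost Akap5 at 72 h (-0.68), for the mean of the 7 times against sham (-0.71) and control (-0.97) and in the joint test (F 3.32), and turned Ager at 24 h (-0.15), late against early (0.10), 3 h against 1 h (-0.26) and 6 h against 3 h (0.52). The higher-numbered spot alone lost Akap5 at 3 h (-0.93), for both means (-0.59 against sham, -0.78 against control) and in the joint test (F 3.71), and turned Ager at 16 h (-0.0804) and Akap5 late against early (-0.0389). The lower-numbered spot alone turned Akap5 minus Ager at 48 h (-0.15) and 72 h (0.0038). The spread of the compared groups alone lost Akap5 at 3 h (-1.11, adjusted p = 0.171) and 72 h (-0.98, adjusted p = 0.0923). Without centring Akap5 passed at 24 h (-0.85, adjusted p = 0.0336), and array weights turned Ager at 3 h (0.30).

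With the replicate number as a block the mean of the 7 times for Akap5 (-0.76, adjusted p = 0.0527) and its joint test (F 4.92, adjusted p = 0.0677) missed the threshold and Ager at 16 h turned (-0.11), while no other call changed. The arrays share only a number: 7 of 30 correlated best with an array of their own number. Leaving out 3 h replicate 2 and 72 h replicate 3 as well, chosen after the data were seen, gave -0.57 for the mean of the 7 times for Akap5 (adjusted p = 0.04996).

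With 1 array left out, Akap5 gave -1.31 to -0.79 at 72 h, -0.72 to -0.52 and -1.003 to -0.64 for the mean of the 7 times against sham and control, F of 4.14 to 7.57, and -0.0430 to 0.13 for late against early. Ager gave -0.46 to 0.0947 at 3 h, -0.27 to 0.39 at 16 h, -0.00563 to 0.50 at 24 h, -1.13 to -0.68 at 72 h, -0.16 to 0.0442 for late against early, -0.16 to 0.39 for 3 h against 1 h and -0.40 to 0.15 for 6 h against 3 h. The correlation of Ager with Akap5 passed with all 32 arrays by r (0.606, adjusted p = 0.0112) but not by rho (0.353, adjusted p = 0.145). Within groups it passed by both (r = 0.661, rho = 0.587), and by neither without the 2 arrays with the largest Ager deviations (adjusted p = 0.0841 and 0.145). The cause of these changes was not tested. The small groups and the lack of signal over background in the deposited ratios limit what can be seen.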
